A study of Homo sapiens with 2 samples.

Results

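The genes described here build the contacts between epithelial cells and the keratin filaments anchored to them. They were taken from the deposited table by name among protein-coding genes, as keratins (KRT), claudins (CLDN), numbered cadherins (CDH), desmocollins (DSC), desmogleins (DSG), plakophilins (PKP) and the zonula occludens genes (TJP), with DSP, JUP, OCLN, EPCAM, F11R and MARVELD2 added. This gave 122 of the 58735 gene rows, which are 55 keratins, 30 tight junction genes, 23 cadherins, 13 desmosome genes and EPCAM. The naming rule uses no measured value, but the members were chosen with earlier results of these data known. Their shares set beside all genes below are therefore descriptions.

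Both libraries came from HM-SUIT-2, a highly metastatic form of SUIT-2, a human pancreatic adenocarcinoma cell line. In one, the cells had been treated with dihydroartemisinin (DHA), the active metabolite of the artemisinin antimalarials, and in the other, labelled NC and taken as untreated from the study's design text, they had not. The sources used here give no dose, exposure time or vehicle. There was 1 RNA-seq library per group, so no difference below has a replicate check. The DHA library held 14521101 counted reads and the untreated library 15452609.

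Adherens junctions join neighbouring cells through cadherins, whose tails bind catenins and, through them, actin. Desmosomes join cells through desmogleins and desmocollins, whose tails bind plakoglobin, plakophilins and desmoplakin and, through these, keratin filaments. Tight junctions seal the space between cells with claudins and occludin on a scaffold of zonula occludens proteins. Keratin filaments form from a type I and a type II chain, and simple epithelia such as pancreatic ducts chiefly carry KRT8 and KRT18 with KRT19 and KRT7.

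The treated library had fewer reads of the main keratins, of E-cadherin, of EPCAM and of 2 claudins, while the ratios of most desmosome genes, of occludin and of ZO-1 stayed under 2-fold. By the rule given next, PKP3, TJP3 and KRT80 were also called lower, and CLDN12, CLDN15 and KRT15 were called higher. To be called, a gene needed 50 reads or more in the DHA or the untreated library, a scaled ratio of 2-fold or more and a 95% counting interval of that ratio that excluded 1. Of the 122 members, 30 had at least 50 reads, 27 of them in both libraries, and 3 (CDH1, TJP3 and KRT15) in 1 library only. Among the 30, 10 were called lower in the DHA library, against 10.3% of the 12064 genes of all kinds past the same minimum, and 3 were called higher, against 6.72% of them. The members' median log2 ratio of DHA over untreated was -0.48, and that of all 12064 genes was 0.04. The other 92 members were under the minimum, and 59 of these were listed at 0 in both libraries. A count of 0 allows up to 3 reads, or 0.206 CPM (reads relative to the scaled library size) in the DHA library and 0.195 CPM in the untreated library. Neither the intervals nor this limit cover more than counting error, because there was 1 library per group. They also treat each read as a separate molecule, so PCR copies, where counted, are not allowed for. In bulk RNA, fewer cells that express a gene and less RNA per cell cannot be told apart.

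**Figure D1:**
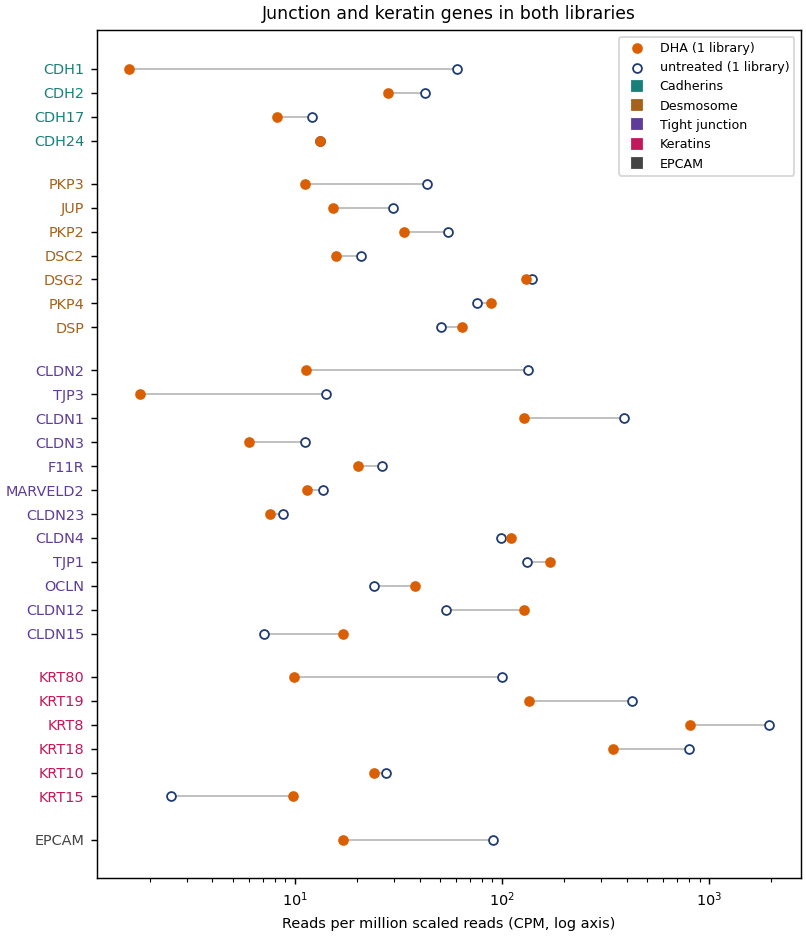
Level of the 30 members past the read minimum, in scaled CPM on a log axis, with 1 filled point for the DHA library and 1 open point for the untreated library. Row labels are coloured by class. Of these 30, KRT8, KRT18, KRT19 and CLDN1 had the most reads in the untreated library, and the widest gap is that of CDH1.

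The label was set beside markers of broad cell types, and the cell line itself was not checked. All 5 epithelial markers (KRT8, KRT18, KRT19, EPCAM and CDH1) were detected in both libraries, with a sum of 1309 CPM in the DHA library and 3313 CPM in the untreated library. These 5 are themselves members, so their sums restate results given below and are no separate check. Fibroblast markers summed to 14 reads in the DHA library and 131 in the untreated library over 8 genes, with DCN, THY1, COL3A1 and COL1A2 at 0 in both. Of 4 leukocyte markers, PTPRC and CD3E were at 0 in both libraries, and the sums were 11 reads and 18 reads in the DHA and the untreated library. Endothelial markers had 57 reads in the DHA library and 281 in the untreated library, nearly all from PECAM1, while VWF had 3 and 1 and CDH5 was at 0 in both. The extraction protocol names retina, and of 6 retinal markers only PDE6B was detected, with 2 reads in the DHA library and 0 in the untreated library. The part of the fibroblast and endothelial marker reads in the results below was not tested.

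Among the cadherins, E-cadherin alone passed the size rule. CDH1, which encodes E-cadherin, the main epithelial cadherin (ENSG00000039068, chromosome 16, 68737225 to 68835548, plus strand of GRCh38), had 23 reads in the DHA library and 933 in the untreated library, 37.6-fold lower (25.4 to 60.9), with 5.62% of its exon length under an antisense gene. CDH2, which encodes N-cadherin, the cadherin of mesenchymal and neural cells, had 411 reads in the DHA library and 655 in the untreated library. Its log2 ratio was -0.59, under the 2-fold limit and on the same side as that of CDH1, and its counting interval excluded 1 (ratio 0.584 to 0.751). CDH17, the liver-intestine cadherin, had 119 reads in the DHA library and 186 in the untreated library (log2 ratio -0.56, ratio interval 0.532 to 0.855). CDH24, a classical cadherin of type II, had 193 reads in the DHA library and 203 in the untreated library, and its log2 ratio of 0.01 was below 0 with DESeq2 size factors (-0.03) and with upper-quartile scaling (-0.06). Thus 1 of 4 cadherins past the minimum (25%) was called lower and 0 higher, with a class median of -0.58. The shares of all genes past the minimum were 10.3% lower and 6.72% higher, and 4 genes are too few to compare with them. CDH1 reached the minimum through the untreated library alone.

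Per length, CDH1 was the cadherin whose share differed most between the libraries. Levels were set per length as TPM, a share of the library after division by the deposited gene lengths. CDH1 stood at 0.908 TPM in the DHA library and 31.2 TPM in the untreated library, and CDH2 at 20.3 TPM and 27.3 TPM in the DHA and the untreated library. CDH1 thus made up 2.18% of all cadherin TPM in the DHA library and 38.7% in the untreated library, where it was the largest. CDH2 made up 48.6% in the DHA library and 33.9% in the untreated library, although its own level was not higher with DHA. CDH24 took 30.2% in the DHA library and 13.9% in the untreated library. The cadherin sum was 41.7 TPM in the DHA library and 80.5 TPM in the untreated library.

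P-cadherin (CDH3), which lies 14608 bases upstream of CDH1 with no coding gene between them, had 0 reads in the DHA library and 5 in the untreated library. R-cadherin (CDH4) had 5 reads in the DHA library and 18 in the untreated library. The other 17 cadherins, among them the endothelial CDH5 and the mesenchymal CDH11, had at most 9 reads in either library, and 12 of them were at 0 in both.

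The 13 desmosome genes together had 5222 reads in the DHA library and 6393 in the untreated library. Plakophilin 3 alone passed the size rule. Of the 7 past the minimum, 5 had a log2 ratio below 0 and 2 above 0, and each counting interval excluded 1. PKP3, a plakophilin that binds most desmosomal cadherins (ENSG00000184363, chromosome 11), had 164 reads in the DHA library and 666 in the untreated library, 3.84-fold lower (3.24 to 4.59). PKP2, the plakophilin of simple epithelia and heart, had 491 reads in the DHA library and 849 in the untreated library, a log2 ratio of -0.71. PKP4, a relative found mainly at adherens junctions and in the cytoplasm, had 1285 reads in the DHA library and 1172 in the untreated library (log2 ratio 0.21). The plakophilin makeup by TPM therefore had PKP4 at 54.4% in the DHA library and 29.3% in the untreated library, and PKP3 at 17.5% and 41.9% in the DHA and the untreated library. PKP1, a plakophilin of stratified epithelia, was at 0 in both.

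JUP, which encodes plakoglobin, an armadillo protein of desmosomes and adherens junctions alike, had 223 reads in the DHA library and 457 in the untreated library. Its ratio of 1.94-fold lower (1.65 to 2.29) lay just short of the limit, and with upper-quartile scaling it passed (log2 ratio -1.02). DSP, which encodes desmoplakin, the linker to keratin filaments, had 932 reads in the DHA library and 786 in the untreated library, a log2 ratio of 0.32. DSG2, the desmoglein of simple epithelia, was the most abundant desmosome gene per length, at 74.7 TPM in the DHA library and 71.3 TPM in the untreated library, with a log2 ratio of -0.10. DSC2, its desmocollin counterpart, had 230 reads in the DHA library and 322 in the untreated library (log2 ratio -0.41). The remaining desmosomal cadherins, DSG1, DSG3, DSG4, DSC1 and DSC3, which belong mainly to stratified epithelia, had at most 1 read in either library. In all, 1 of 7 desmosome genes past the minimum (14.3%) was called lower, a share near the 10.3% over all genes, and 0 were called higher, with a median log2 ratio of -0.41.

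**Figure D2:**
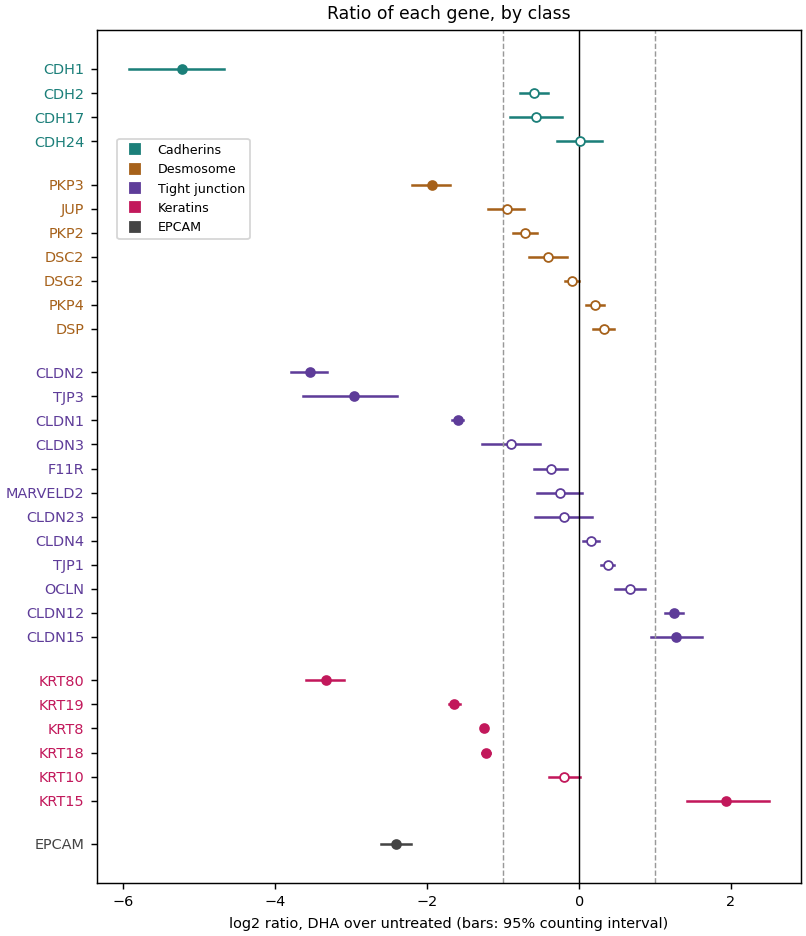
Log2 ratio of DHA over untreated for the 30 members past the read minimum, by class, with 95% counting intervals as bars (1 library per group). Filled points passed the size rule, open points did not, and dashed lines mark 2-fold. CDH1 lies farthest to the left at -5.23, and CLDN12, CLDN15 and KRT15 are the filled points on the right.

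Tight junction genes went both ways, and the split ran through the claudins. CLDN2, which encodes a claudin that forms a cation and water pore (ENSG00000165376, chromosome X), had 165 reads in the DHA library and 2046 in the untreated library, 11.7-fold lower (10.01 to 13.8), with 10% of its exon length overlapped by RIPPLY1 on the other strand. CLDN1, a sealing claudin (ENSG00000163347, chromosome 3), had 1871 reads in the DHA library and 5989 in the untreated library, 3.03-fold lower (2.88 to 3.19). CLDN12, which encodes a broadly expressed claudin, had 1863 reads in the DHA library and 829 in the untreated library, 2.37-fold higher (2.19 to 2.58), although same-strand genes overlap 16.3% of its exons. CLDN15, which encodes a cation-pore claudin of the intestine, had 250 reads in the DHA library and 109 in the untreated library, 2.42-fold higher (1.93 to 3.06). The pore-forming claudins CLDN2 and CLDN15 thus moved in opposite directions.

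The other claudins past the minimum did not pass 2-fold. CLDN4, a sealing claudin often raised in pancreatic cancer, had 1613 reads in the DHA library and 1528 in the untreated library (log2 ratio 0.16). Its neighbour CLDN3, 29271 bases away on chromosome 7, had 88 reads in the DHA library and 173 in the untreated library (log2 ratio -0.89). CLDN23 had 111 reads in the DHA library and 135 in the untreated library (log2 ratio -0.20), with an interval that included 1. The claudin sum was 344 TPM in the DHA library and 614 TPM in the untreated library. CLDN1 made up 36.2% of it in the DHA library and 55.0% in the untreated library, and CLDN2 made up 3.43% and 20.2% in the DHA and the untreated library. CLDN12 stood at 19.6% of the claudin TPM in the DHA library, against 4.14% in the untreated library, and CLDN4 stood at 24.3% in the DHA library and 10.9% in the untreated library.

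**Figure D3:**
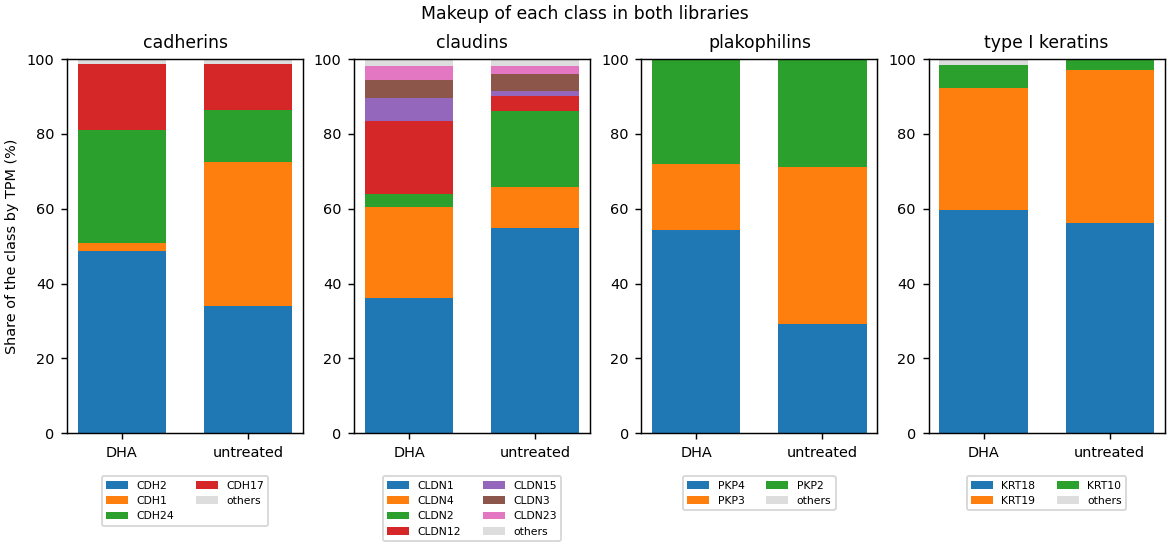
Share of 4 classes by TPM that each member made up, in percent, with the DHA library left of the untreated library in each panel (1 library each). CDH1 fills 2.18% of the cadherin bar with DHA and 38.7% without, PKP3 17.5% and 41.9% of the plakophilin bar, and CLDN2 3.43% and 20.2% of the claudin bar.

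Among the scaffold and other membrane genes, TJP3 alone passed the size rule. TJP3, which encodes ZO-3, an epithelial scaffold protein (ENSG00000105289, chromosome 19), had 26 reads in the DHA library and 217 in the untreated library, 7.77-fold lower (5.25 to 12.4). It reached the read minimum through the untreated library alone. TJP1, which encodes ZO-1, the widely expressed scaffold, had 2500 reads in the DHA library and 2038 in the untreated library (log2 ratio 0.37). Per length TJP1 stood at 54.1 TPM in the DHA library and 37.3 TPM in the untreated library.

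OCLN, which encodes occludin, had 556 reads in the DHA library and 370 in the untreated library, a log2 ratio of 0.67 that reached 1.5-fold and not 2-fold. MARVELD2, which encodes tricellulin, the related protein of tricellular contacts and a neighbour of OCLN on chromosome 5, had 167 reads in the DHA library and 211 in the untreated library (log2 ratio -0.26). F11R, which encodes the adhesion molecule JAM-A, had 295 reads in the DHA library and 404 in the untreated library (log2 ratio -0.37), with 36.6% of its exon length shared with a same-strand gene. Over all tight junction genes past the minimum, 3 of 12 (25%) were called lower, TJP3 among them, and 2 (16.7%) higher. The shares of all genes past the minimum were 10.3% lower and 6.72% higher. The class median log2 ratio was -0.23, and that of all genes was 0.04.

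The annotation places CLDN1 head to head with CLDN16, a claudin of the kidney tubule, with 65 bases between their starts. CLDN16 had 0 reads in the DHA library and 28 in the untreated library, at least 8.84-fold lower when 3 reads per library are taken as the floor. The 95% counting interval of its ratio began lower, at 6.72-fold, and the gene was under the read minimum. RefSeq places the starts of CLDN16 elsewhere. The stretch is shown because both of these neighbours had fewer reads with DHA. It is the RefSeq promoter window of CLDN1 (GRCh38.p14, chr3:190322397-190322696, minus strand), from 250 bases before the CLDN1 start to 50 after it, and capitals mark the 65 bases between the starts annotated in the deposited table.

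CLDN1: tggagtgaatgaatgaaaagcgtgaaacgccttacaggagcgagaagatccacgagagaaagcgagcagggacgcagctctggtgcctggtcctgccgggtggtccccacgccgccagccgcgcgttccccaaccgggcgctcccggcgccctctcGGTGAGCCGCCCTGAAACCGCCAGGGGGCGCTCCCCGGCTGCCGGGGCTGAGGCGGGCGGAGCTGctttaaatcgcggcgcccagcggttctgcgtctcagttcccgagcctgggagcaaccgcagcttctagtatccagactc

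Promoters were also searched for CACCTG on either strand, the E-box bound by the SNAI and ZEB repressors of epithelial genes, and for AACCGGTT, the site of the grainyhead-like activators. Of the 122 members, 79 had windows in the RefSeq table, and of the 30 past the minimum 18 did. The 28 windows of these 18 genes held the E-box in 9, against 20.6% of all 35116 windows, and the grainyhead-like site in 0, against 0.134% of all windows. For a site that rare, 28 windows are too few for the 0 to tell anything about these genes. Of the 6 windows of the members called lower (CLDN1, CLDN2, TJP3 and KRT8), 1 held the E-box, and of the 2 windows of CLDN12 and CLDN15, 0 did. CDH1, PKP3, KRT80, KRT18, KRT19, EPCAM and KRT15 had no window in it. The 2 windows below are shown because both hold the E-box, in capitals, while the genes differ in their ratios, TJP3 being lower and OCLN not called with a ratio above 1. In TJP3 the E-box begins at position -7 from the start, and in OCLN at -133 and 36. They are RefSeq windows on GRCh38.p14, TJP3 at chr19:3721487-3721786 and OCLN at chr5:69492540-69492839, both on the plus strand, and each gene has another window, without the E-box for TJP3 and with it at -33 for OCLN. A match is a description of the letters and not a measured binding site.

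TJP3: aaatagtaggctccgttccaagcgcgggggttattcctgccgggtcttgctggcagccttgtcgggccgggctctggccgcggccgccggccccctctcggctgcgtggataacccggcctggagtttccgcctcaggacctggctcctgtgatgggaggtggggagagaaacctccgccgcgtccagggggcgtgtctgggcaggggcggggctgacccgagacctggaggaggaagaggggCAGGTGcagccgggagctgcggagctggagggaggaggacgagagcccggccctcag
OCLN: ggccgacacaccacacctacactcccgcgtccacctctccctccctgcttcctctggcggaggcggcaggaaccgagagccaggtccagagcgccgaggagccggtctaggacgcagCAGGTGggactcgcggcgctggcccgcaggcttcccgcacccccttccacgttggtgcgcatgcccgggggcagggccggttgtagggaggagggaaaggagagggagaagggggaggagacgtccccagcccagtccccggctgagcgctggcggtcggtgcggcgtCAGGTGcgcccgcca

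Keratins made up most of the reads of these genes, and KRT8, KRT18 and KRT19 fell with DHA. Over all 55 keratins, the DHA library held 19504 reads and the untreated library 50787, which is 0.134% (95% exact binomial interval 0.132 to 0.136) and 0.329% (0.326 to 0.332) of the reads in the DHA and the untreated library. KRT8, the type II keratin of simple epithelia (ENSG00000170421), had 11840 reads in the DHA library and 29850 in the untreated library, 2.39-fold lower (2.34 to 2.44). KRT18, its type I counterpart (ENSG00000111057), had 4985 reads in the DHA library and 12313 in the untreated library, 2.34-fold lower (2.26 to 2.42), so that the intervals of both counterparts overlapped. KRT19, a type I keratin of duct cells, had 1977 reads in the DHA library and 6515 in the untreated library, 3.12-fold lower (2.97 to 3.28), and its interval lay apart from those of KRT8 and KRT18.

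The type II to type I balance was nearly the same in both libraries. Type II keratins summed to 430 TPM in the DHA library and 974 TPM in the untreated library, and type I keratins to 634 TPM and 1408 TPM in the DHA and the untreated library. The ratio of type II to type I was 0.678 in the DHA library and 0.692 in the untreated library. Counted as reads, type II keratins had 12016 in the DHA library and 31486 in the untreated library. Type I keratins had 7488 and 19301 reads in the DHA and the untreated library. Type II was thus below type I by TPM and above it by reads, so the order depends on the lengths used. KRT8 made up 97.7% of type II TPM in the DHA library and 91.9% in the untreated library. KRT18 and KRT8 overlap on opposite strands of chromosome 12, with 16.3% of the KRT18 and 7.63% of the KRT8 exon length shared, and the sources used here do not say whether the counting used strand. Both also have many pseudogenes. The 67 KRT18 pseudogene rows held 47 reads in the DHA library and 27 in the untreated library, and the 50 KRT8 rows held 183 and 153 in the DHA and the untreated library.

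KRT80, a type II keratin linked to desmosomes, differed more than the main keratins. It had 145 reads in the DHA library and 1547 in the untreated library, 10.1-fold lower (8.52 to 12.1). KRT10, a type I keratin of differentiating epidermis, had 350 reads in the DHA library and 423 in the untreated library (log2 ratio -0.19, interval including 1). KRT15, a type I keratin of basal and progenitor cells, had 142 reads in the DHA library and 39 in the untreated library, 3.81-fold higher (2.68 to 5.63), and reached the read minimum through the DHA library alone. Per length KRT15 was still low, at 4.90 TPM in the DHA library and 1.14 TPM in the untreated library. Of the 6 keratins past the minimum 4 (66.7%) were lower and 1 (16.7%) higher, against 10.3% and 6.72% of all genes past it. The keratin median log2 ratio was -1.24, and that of all genes was 0.04.

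Position in the keratin clusters can be set beside these values. KRT15 and KRT19 are neighbours on the minus strand of chromosome 17, with 1087 bases between them and no coding gene in between, and KRT15 was called higher and KRT19 lower. The type II cluster on chromosome 12, taken with KRT18 (52168996 to 52952901), holds 27 members, of which 19 were at 0 in both libraries. The 3 past the minimum (KRT80, KRT8 and KRT18) were all called lower, against 10.3% of all genes past it. These are keratins already described, and KRT8 and KRT18 overlap. The stretch of chromosome 17 with the type I cluster and JUP (40654665 to 41786931) holds 29 members, with 19 at 0 in both and 4 past the minimum. On chromosome 18, DSC2 and DSG2 lie in a cluster of 7 desmosomal cadherin genes (30990008 to 31549008), of which 3 were at 0 in both and 0 were called.

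Under the read minimum, KRT34, a hair keratin, had 31 reads in the DHA library and 0 in the untreated library, at least 10.9-fold higher with 3 reads per library as the floor, and its 95% counting interval began at 8.36-fold. KRT7, a keratin of duct and glandular epithelium, had only 26 reads in the DHA library and 49 in the untreated library, or 1.55 TPM and 2.47 TPM in the DHA and the untreated library. KRT5, of basal cells, had 5 reads in the DHA library and 16 in the untreated library. The hair keratins KRT81 and KRT86 had 0 reads each in the DHA library and 12 and 10 in the untreated library, and as near-identical copies in overlapping loci their counts are uncertain. CLDN7 had 6 reads in the DHA library and 44 in the untreated library, a difference that the counting interval separated (ratio 0.0502 to 0.339) although it lay under the minimum. CLDN10 had 13 reads in the DHA library and 24 in the untreated library, CLDN14 had 14 and 4, CLDN18 had 12 and 13, CLDN11 had 7 and 18, and CLDN20 had 6 and 10 in the DHA and the untreated library. Apart from CLDN16, described above, all other keratins and claudins under the minimum had at most 9 reads in either library.

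EPCAM, a membrane glycoprotein of epithelial cells that binds claudins and regulates their turnover, had 249 reads in the DHA library and 1396 in the untreated library, 5.30-fold lower (4.64 to 6.10). Per length it stood at 24.1 TPM in the DHA library and 114 TPM in the untreated library.

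Lists of genes whose proteins bind or accompany these junctions and filaments were read against the shares over all genes, 10.3% lower and 6.72% higher. The lists too were chosen with earlier results of these data known. Of 10 catenin, nectin and actin-linker genes of the adherens junction, 9 had enough reads, and 0 were called in either direction, with a median log2 ratio of 0.34. CTNNA1, for alpha-catenin, had 13153 reads in the DHA library and 10143 in the untreated library (log2 ratio 0.45), and CTNNB1, for beta-catenin, had 8182 and 8200 in the DHA and the untreated library (log2 ratio 0.08). CTNND1, for p120-catenin, which stabilises cadherins at the membrane, had 472 reads in the DHA library and 354 in the untreated library (log2 ratio 0.49). CDH1 was thus called lower and these 3 catenin genes were not called.

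Of 19 tight junction partner genes, 14 had enough reads, 2 (14.3%) were called lower and 1 (7.14%) higher, near the shares over all genes, with a median log2 ratio of 0.13. CGN, which encodes cingulin, a ZO-binding protein, had 223 reads in the DHA library and 619 in the untreated library, 2.62-fold lower (2.25 to 3.08), and the polarity gene PARD6B had 536 and 1241 in the DHA and the untreated library, 2.19-fold lower (1.98 to 2.43). TJAP1, which encodes a tight junction associated protein, was 2.22-fold higher (1.93 to 2.56), with 618 reads in the DHA library and 294 in the untreated library. Of 9 desmosome linker and hemidesmosome genes, 2 (22.2%) were lower and 0 higher, with a median log2 ratio of -0.32. These 9 genes are too few to compare with the shares over all genes. ITGB4, the hemidesmosome integrin subunit, had 3547 reads in the DHA library and 11236 in the untreated library, a log2 ratio of -1.58 (fold lower 2.89 to 3.12). PPL, which encodes periplakin, had 69 reads in the DHA library and 255 in the untreated library, 3.48-fold lower (2.67 to 4.63), while PLEC, for the keratin linker plectin, had a log2 ratio of 0.50.

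Of 13 other intermediate filament genes, 6 had enough reads, with a median log2 ratio of -0.59. Among these 6, 2 (33.3%) were lower and 0 higher, too few genes to compare with the shares over all genes. The 2 called lower were NES and LMNB1. NES, for nestin, had 68 reads in the DHA library and 335 in the untreated library. LMNB1, for lamin B1, had 1490 and 3916 in the DHA and the untreated library. VIM, for vimentin, the filament protein of mesenchymal cells, had 21066 reads in the DHA library and 18871 in the untreated library, a log2 ratio of 0.24. Of 12 connexin genes, 4 had enough reads, with a median log2 ratio of 0.34. GJA3 was called higher (370 reads in the DHA library and 191 in the untreated library), but not with DESeq2 size factors or upper-quartile scaling.

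**Figure D4:**
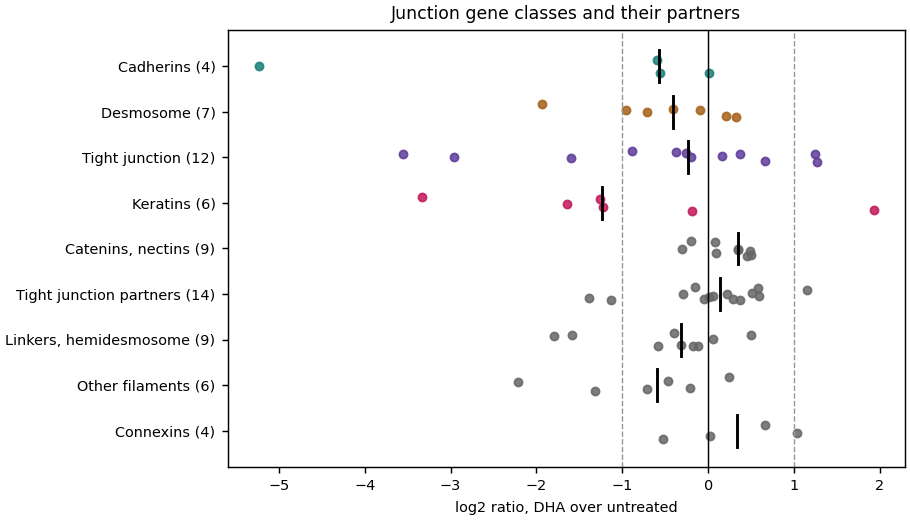
Log2 ratio of DHA over untreated of each gene past the read minimum, for the 4 member classes (coloured) and 5 lists of related genes (grey), with the number of genes in parentheses and the median as a black bar (1 library per group). Catenins and nectins all lie within 2-fold, whereas each member class has at least 1 gene beyond 2-fold lower.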

How the data were processed

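RNA-seq was deposited for 1 library of DHA-treated and 1 of untreated HM-SUIT-2 cells. Per the labels' protocols, Trizol was used for extraction and an Illumina kit for the libraries. The values deposited by the authors are raw read counts, whole and not normalized, beside gene lengths in bases. Per the submitters' processing notes the build is mm8, a mouse build, but all 58735 rows had the human coordinates and exon lengths of GENCODE release 29 on GRCh38. The sources used here name no aligner, counting tool or strand setting.

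Library sizes were adjusted with TMM, a trimmed mean of log ratios (edgeR 4.0.16, R 4.3.3), with factors of 1.004 for DHA and 0.996 for untreated. The ratio was taken after adding 0.5 reads, and its 95% interval is the exact Clopper-Pearson interval of the DHA share of a gene's reads. With 1 library per group, calls rest on size alone and no p-value was made. The rule was run on simulated counts that held counting error alone, so this run cannot show how it handles variation between cultures. TPM used the deposited lengths, which join all exons of a gene. Every member with at least 50 reads was named, and 1 member under that minimum is not reported here. The members and lists were chosen with earlier results of these data known, and the printed promoters after their values were seen. Alternatives covered scaling (total reads, DESeq2 1.42.0 size factors, upper quartile), read minimum, added reads, fold, protein-coding genes alone and shared exons.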

Additional observations from a re-analysis of the deposited data

How the results depend on the processing

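Of 378 values of the 30 named members under 13 other settings, 375 stayed within their counting interval and 0 of the called ones changed sign. The 3 others were KRT8 and KRT18 under DESeq2 or upper-quartile scaling. CDH24, near 0 and not called, changed sign under 3 settings. No member changed its call with total-read or DESeq2 scaling. With upper-quartile scaling JUP also passed, which gave 2 desmosome genes lower, and the keratin median was -1.31.

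With a minimum of 10 reads, 16 of 44 members were lower and 5 higher, with 2 cadherins, 5 tight junction genes and 7 keratins lower and 2 keratins higher. Of all 15616 genes past that minimum, 2126 were lower and 1297 higher. With no minimum the member and class counts were these same numbers, now among 63 members with any reads. The keratin median was -1.02, and of 26009 genes with any reads 2386 were lower and 1432 higher. With a minimum of 500 reads, 9 of 18 members were lower and 1 was higher, a tight junction gene, and 0 keratins were higher. The medians were then -0.97 for members, -2.91 for cadherins, -0.10 for desmosome genes, 0.27 for tight junction genes and -1.45 for keratins, over fewer genes. Of all 6551 genes past that minimum, 379 were lower and 431 higher. At 1.5-fold, 2 cadherins and 3 desmosome genes were lower, and over all genes 2320 lower and 2284 higher. At 4-fold, 5 of 30 members were lower and 0 higher, with 0 desmosome genes and 1 keratin lower and 0 tight junction genes and 0 keratins higher. Over the same 12064 genes, 340 were lower and 110 higher.

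With 1 library per group, variation between cultures was not measured. Counting error limits the ratios of TJP3, KRT15 and CDH1, which had under 50 reads in 1 library. No paired analysis was possible because there is 1 library per group.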
